A study of Homo sapiens with 24 samples.

Results

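Metallothioneins and the genes that move and sense zinc were followed through a METTL3 knockdown in a pair of prostate cancer cell lines. The group is a named list of 10 genes out of the 60675 genes counted, and all 10 were found by symbol in the count tables. It holds 6 metallothionein genes (MT1E, MT1F, MT1G, MT1M, MT1X and MT2A), the transcription factor gene MTF1, the exporter gene SLC30A1 (ZnT1) and the importer genes SLC39A1 (ZIP1) and SLC39A6 (ZIP6). The data are 24 RNA-seq libraries, 3 for each of 8 conditions.

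Metallothioneins are small cysteine-rich proteins that bind zinc and copper in the cytosol and buffer the free metal. When free zinc rises, MTF1 binds metal response elements in DNA and switches on metallothionein genes and SLC30A1, whose product pumps zinc out across the plasma membrane, while the ZIP proteins carry zinc into the cytosol. Normal prostate epithelium is known for its high zinc content, which is lost in most prostate cancers.

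LNCaP:C4-2 and 22Rv1 are established human prostate cancer lines. LNCaP:C4-2 is a castration-resistant derivative of LNCaP, and 22Rv1 was derived from a human prostate cancer xenograft. Cells of each line were grown in charcoal-stripped serum, which is depleted of steroids, and received either a pool of siRNAs against METTL3 (siMETTL3), the catalytic subunit of the mRNA m6A writer, or a control pool without a target (siSCR). The siRNA was given again 48 h later, together with ethanol (vehicle) or 1 nM of the synthetic androgen R1881, and the treatment ran for 72 h. All 8 conditions therefore share 2 rounds of transfection and steroid-depleted medium. The labels number the replicates 1 to 3 and do not say that they were separate cultures, so p-values measure the spread between these libraries, which may be technical. In bulk RNA, fewer cells of a kind and less RNA per cell cannot be told apart.

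Library totals ran from 15716224 to 21306019 counted fragments, and mitochondrial genes took 3.93% to 9.73% of them. All 9 prostate luminal markers were at 1 CPM (the count scaled to a common library total, with library sizes adjusted by the TMM method) or more in both lines, and FOLH1 led them in LNCaP:C4-2 (1149 CPM). Markers of basal epithelium summed to at most 1.03 CPM and those of leukocytes to at most 1.68 CPM in any library. Of the 6 fibroblast markers 2 were at a mean of 1 CPM or more in each line, COL1A1 (57.2 CPM) and PDGFRB in LNCaP:C4-2 and COL1A1 (21.4 CPM) and LUM in 22Rv1. Their sum was 41.3 to 74.3 CPM in LNCaP:C4-2, where DCN was at 0, and 16.6 to 32.9 CPM in 22Rv1. The endothelial marker VWF stood at 5.08 CPM in LNCaP:C4-2. METTL3 itself was lower with siMETTL3 in every comparison: from 28.8 ± 2.35 to 19.04 ± 1.37 CPM (SD, n = 3) in vehicle and from 33.4 ± 2.67 to 22.5 ± 0.370 CPM with R1881 in LNCaP:C4-2, and from 46.3 ± 0.691 to 24.9 ± 0.722 CPM and from 50.4 ± 1.46 to 22.4 ± 2.01 CPM in 22Rv1. Every siMETTL3 library lay below every siSCR library of its line and treatment (exact two-sided permutation test, p = 0.1 each, the smallest that 3 against 3 libraries allow). In LNCaP:C4-2 with R1881 the METTL3 log2 fold change was -0.57 (edgeR adjusted p = 0.0256), which is under 1.5-fold. The changes in mean CPM were -33.8% and -32.8% in LNCaP:C4-2 and -46.1% and -55.5% in 22Rv1, in vehicle and with R1881.

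The 6 metallothionein genes lie in one cluster on chromosome 16 (GRCh38), in the order MT2A (56608199 to 56609497), MT1E (56625475 to 56627112), MT1M (56632233 to 56633986), MT1F (56657694 to 56660698), MT1G (56666731 to 56668065) and MT1X (56682424 to 56684196). MT1G is on the minus strand and the other 5 are on the plus strand. MTF1 (37809567 to 37859620), SLC39A1 (153959099 to 153968184) and SLC30A1 (211571568 to 211578742) are on the minus strand of chromosome 1, and SLC39A6 (36108532 to 36129385) is on the minus strand of chromosome 18. Their messages differ greatly in length: the canonical transcript has 401 bases for MT2A, 404 for MT1X, 425 for MT1F, 410 for MT1G, 746 for MT1E and 398 for MT1M, against 2038 for SLC39A1, 3566 for SLC39A6, 5893 for SLC30A1 and 7937 for MTF1.

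RefSeq promoter windows (GRCh38.p14) were on hand for 6 of the 10 genes: MT1X, MT2A, MTF1, SLC30A1, SLC39A1 and SLC39A6. The 250 bases before the RefSeq transcription start were searched on both strands for the core of the metal response element, TGCACNC or TGCGCNC, where N is any base. MT2A had 7 matches, MT1X had 4, SLC30A1, SLC39A6 and 1 of the 2 SLC39A1 windows had 1 each, and MTF1 had 0. Of 35116 RefSeq promoter windows of the same length, 24.8% held at least 1 match, 1.58% at least 3 and 0.12% at least 5. The windows of MT2A (chr16:56608334-56608583, plus strand), MT1X (chr16:56682220-56682469, plus strand) and SLC30A1 (chr1:211579162-211579411, minus strand) are shown 5′ to 3′ because MT2A and MT1X carried the responses described next and SLC30A1, another gene known as an MTF1 target, did not pass the fold threshold in them. RefSeq places some starts elsewhere than the gene models given above: its MT2A window lies wholly inside the MT2A span, and its MT1X window runs past the first base of the MT1X span. Capitals mark the matches.
MT2A: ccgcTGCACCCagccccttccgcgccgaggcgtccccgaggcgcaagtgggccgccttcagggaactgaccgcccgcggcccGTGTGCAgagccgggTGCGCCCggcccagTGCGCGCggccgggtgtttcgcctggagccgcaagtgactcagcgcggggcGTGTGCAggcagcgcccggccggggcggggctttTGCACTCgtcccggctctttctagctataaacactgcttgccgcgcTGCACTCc
MT1X: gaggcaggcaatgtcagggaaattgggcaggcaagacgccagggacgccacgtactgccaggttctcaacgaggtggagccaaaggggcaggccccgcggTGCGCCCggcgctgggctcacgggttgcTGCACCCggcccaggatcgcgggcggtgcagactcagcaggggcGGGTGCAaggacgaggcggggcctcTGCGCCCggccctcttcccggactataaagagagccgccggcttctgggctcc
SLC30A1: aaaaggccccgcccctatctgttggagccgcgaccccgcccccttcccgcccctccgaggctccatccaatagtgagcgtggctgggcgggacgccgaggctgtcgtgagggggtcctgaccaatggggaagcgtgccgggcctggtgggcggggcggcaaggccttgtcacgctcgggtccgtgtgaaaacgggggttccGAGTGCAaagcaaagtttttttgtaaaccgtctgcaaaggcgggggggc
The antioxidant response element TGACNNNGC, searched on both strands, was found once in each of the 3 windows, overlapping none of the capitals (10.9% of all windows held it). A match describes letters and not a site in use.

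**Figure D1:**
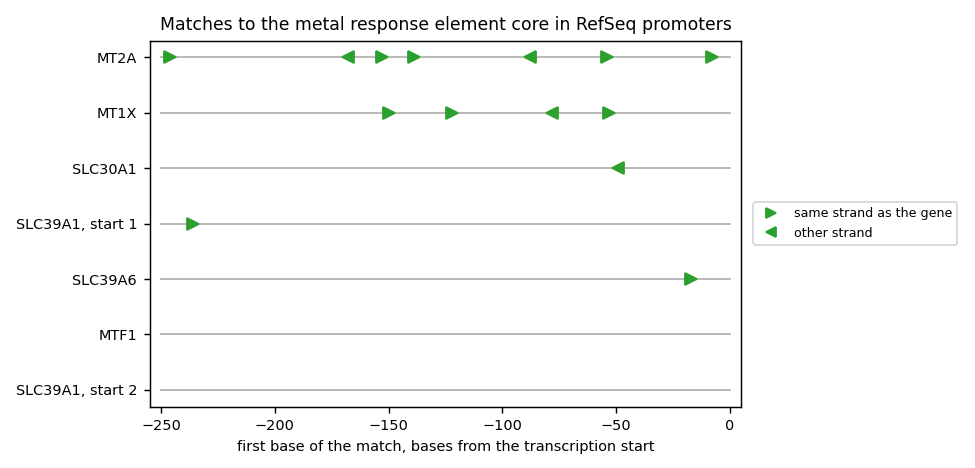
Positions of the metal response element matches in the RefSeq promoter windows of 6 genes, in bases from the transcription start (horizontal axis), with the arrow giving the strand of the match. MT2A holds 7 matches and MT1X 4, while no other window holds more than 1.

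The levels of the metallothioneins differed between the lines before any treatment was compared. In siSCR cells in vehicle MT2A, the most abundant of them, was 81.0, 81.0 and 80.1 CPM in LNCaP:C4-2 and 41.6, 52.5 and 55.6 CPM in 22Rv1. All 3 LNCaP:C4-2 libraries lay above all 3 of 22Rv1, and 22Rv1 differed from LNCaP:C4-2 by -0.69 on the log2 scale (standard error 0.11, edgeR adjusted p = 2.27e-06). MT1X was 7.24, 8.70 and 7.93 CPM in LNCaP:C4-2 and 1.92, 3.00 and 2.18 CPM in 22Rv1, again with no overlap (log2 fold change -1.75, standard error 0.23, edgeR adjusted p = 1.79e-07). MT1F, a further zinc-binding family member, went the other way, with 4.14, 6.12 and 6.25 CPM in LNCaP:C4-2 against 8.79, 9.43 and 8.62 CPM in 22Rv1 (log2 fold change 0.70, standard error 0.16, edgeR adjusted p = 3.93e-04). Without LNCaP:C4-2 siSCR vehicle replicate 1 the MT1F difference was 0.57, and without 22Rv1 siSCR vehicle replicate 1 the MT2A difference was -0.55, both under the 1.5-fold threshold (log2 0.585) though still at an adjusted p under 0.05.

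MT1E and MT1G were read in 22Rv1 and hardly at all in LNCaP:C4-2, although MT2A, MT1F and MT1X of the same cluster were read in both lines. MT1G was 12.01, 12.5 and 13.4 CPM in 22Rv1 siSCR cells in vehicle and MT1E was 4.37, 5.36 and 5.29 CPM. In the 12 LNCaP:C4-2 libraries MT1E had 0 counts throughout, and MT1G had 0 counts in 11 libraries and 1 count in siMETTL3 R1881 replicate 3. Against a floor of 3 counts per library (0.167 CPM on average in vehicle), MT1G was at least 75.9-fold and MT1E at least 30.01-fold higher in 22Rv1. With R1881 these bounds were 116-fold and 39.6-fold. MT1M had 2 counts in 1 library and 1 count in each of 2 others, all of them 22Rv1 siSCR, and 0 in the other 21, so no comparison of it was made. The members of the family share sequence, and fragments that align to several places were not counted: of the 50-base windows of its exons, 16.4% in MT1G, 18.2% in MT1M, 7.10% in MT1E, 4.18% in MT2A, 3.73% in MT1X and 1.24% in MT1F also occur in other metallothionein genes. Levels between these genes are therefore approximate, while the counting was the same in both lines. Per kilobase of canonical transcript, MT2A made up 86.0% of the summed level of the 6 genes in LNCaP:C4-2 siSCR vehicle and 65.8% in 22Rv1, where MT1G followed with 16.3% and MT1F with 11.1%. Per kilobase of all annotated exons MT2A made up 89.4% and 58.1%, and in 22Rv1 MT1G took 25.5%, MT1E 7.19% and MT1F 7.16%, so the shares of the smaller members depend on the length used.

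Among the transport genes, SLC30A1 was 29.7, 28.6 and 32.8 CPM in LNCaP:C4-2 siSCR vehicle and 60.1, 59.6 and 68.8 CPM in 22Rv1 (log2 fold change 1.05, standard error 0.11, edgeR adjusted p = 2.05e-09). SLC39A6 was 122, 123 and 144 CPM against 233, 245 and 287 CPM (log2 fold change 0.98, standard error 0.09, edgeR adjusted p = 1.96e-10). For both the exporter and the importer every 22Rv1 library, in any condition, lay above every LNCaP:C4-2 library. SLC39A1 (log2 fold change 0.33) and MTF1 (-0.22) differed by less than 1.5-fold at edgeR adjusted p of 0.00379 and 0.0178. Of the 7 members read in both lines 5 were called in vehicle, 3 higher and 2 lower in 22Rv1, where 59.2% of all 19437 genes tested were called, 31.2% higher and 27.9% lower. With R1881 the lines differed in 4 of the 7, all higher in 22Rv1 (MT1F 1.70, MT2A 1.31, SLC30A1 0.98 and SLC39A6 0.89 on the log2 scale), against 60.1% of all genes called, 32.6% higher and 27.5% lower. MT1E and MT1G passed the filter on low counts through 22Rv1 alone and are left out of these counts. The shares of all genes include genes read in only 1 line. Of the 12594 genes with at least 10 counts in every library, 6371 were called in vehicle and 6641 with R1881. In that fit 4 of the 7 members were called in vehicle. MT2A thus stood lower in 22Rv1 than in LNCaP:C4-2 in vehicle and higher with R1881.

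**Figure D2:**
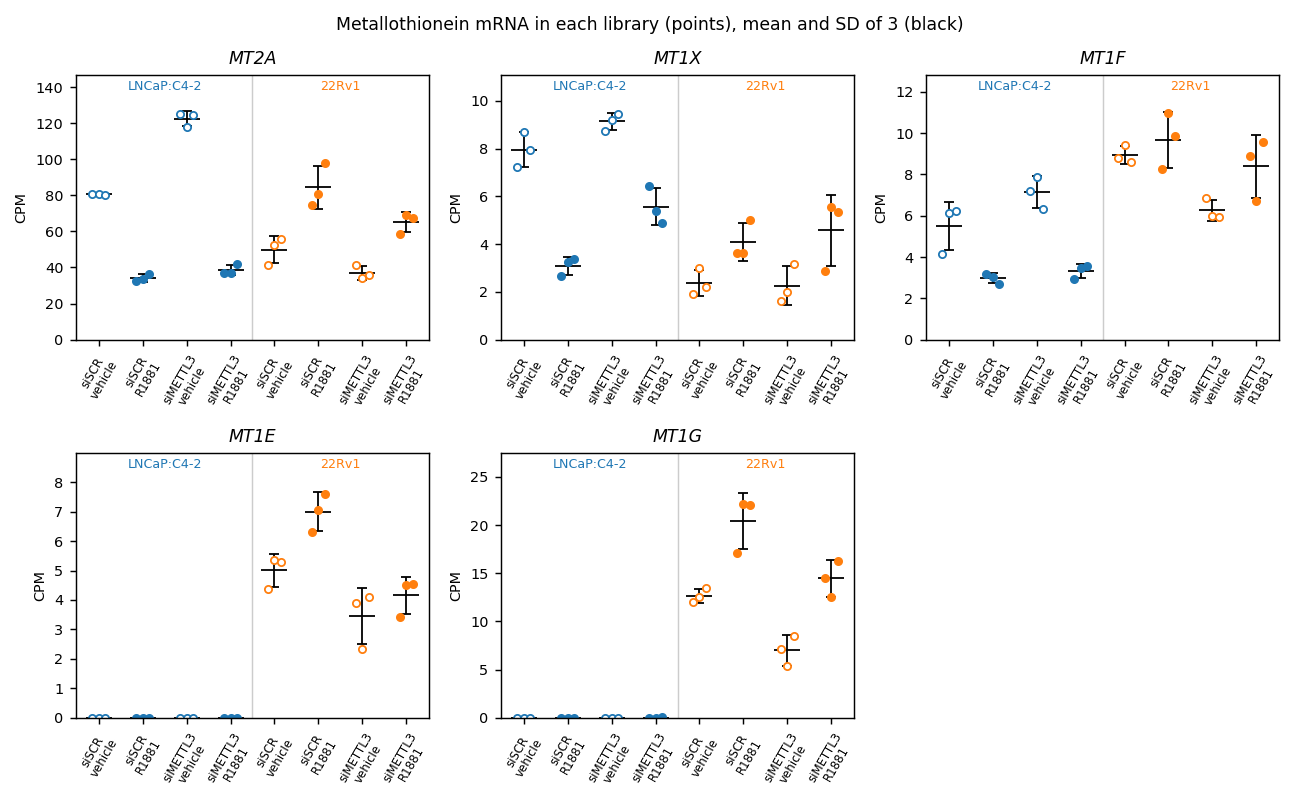
Metallothionein mRNA in CPM (vertical axes, linear) in each of the 24 libraries, by line, siRNA and treatment (open points vehicle, filled points R1881), with the mean and SD of 3 libraries in black. MT2A, MT1X and MT1F are lower with R1881 in LNCaP:C4-2, MT2A is higher with R1881 in 22Rv1, and MT1E and MT1G are at or near 0 in every LNCaP:C4-2 library.

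In LNCaP:C4-2 MT2A, MT1X and MT1F, the metallothioneins read there, were lower with R1881. In siSCR cells MT2A went from 81.0, 81.0 and 80.1 CPM in vehicle to 32.3, 33.9 and 36.2 CPM with R1881, which is -1.25 on the log2 scale (standard error 0.09, edgeR adjusted p = 8.75e-08). MT1X went from 7.24, 8.70 and 7.93 to 2.67, 3.23 and 3.38 CPM (log2 fold change -1.37, standard error 0.16, edgeR adjusted p = 1.81e-05). MT1F went from 4.14, 6.12 and 6.25 to 3.20, 3.04 and 2.69 CPM (log2 fold change -0.90, standard error 0.20, edgeR adjusted p = 0.00371). In each of the 3 genes every R1881 library lay below every vehicle library. These 3 were the members called of 7 tested, in a comparison in which 15.1% of all genes were called and 7.72% were called lower. The median log2 fold change of the 7 was -0.16, against -0.03 for all genes, and the other 4 members had values between -0.16 and 0.34.

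With siMETTL3 the same 3 genes were lower with R1881, from 125, 118 and 125 to 37.0, 36.8 and 42.1 CPM for MT2A (log2 fold change -1.65, standard error 0.09, edgeR adjusted p = 4.97e-09), from 8.73, 9.21 and 9.46 to 6.41, 5.39 and 4.90 CPM for MT1X (-0.70, standard error 0.15, adjusted p = 0.00486) and from 7.20, 7.87 and 6.33 to 2.92, 3.46 and 3.57 CPM for MT1F (-1.09, standard error 0.19, adjusted p = 9.22e-04). Again no libraries overlapped. The background was 10.6% of genes called and 5.54% called lower. The summed level of the 6 metallothionein genes was 94.2 ± 1.71 CPM in siSCR vehicle and 40.2 ± 2.07 CPM in siSCR R1881 cells, and 139 ± 3.31 and 47.5 ± 2.66 CPM in siMETTL3 cells. The summed level of the 9 luminal markers, which include androgen-induced genes such as KLK3, was 2651 to 2747 CPM in siSCR vehicle and 4135 to 5103 CPM in siSCR R1881 libraries. The 3 endothelial markers summed to 3.04 to 3.44 CPM in siSCR vehicle and 6.27 to 6.44 CPM in siSCR R1881 libraries, and to 2.23 to 3.41 and 4.54 to 12.6 CPM with siMETTL3, with VWF called higher in both (0.94 and 1.49 on the log2 scale). KRT14 of the basal markers was called higher, with at most 1 count in a vehicle and 14 in an R1881 library. In siSCR cells PTPRC of the leukocyte markers was called lower, with at most 28 counts in a vehicle library and 0 with R1881. The 4 leukocyte markers summed to 1.18 to 1.68 CPM in siSCR vehicle and 0.30 to 0.42 CPM in siSCR R1881 libraries. With siMETTL3 their sums were 0.13 to 0.45 CPM in vehicle and 0.41 to 0.98 CPM with R1881. The part of these markers in the result was not tested.

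In 22Rv1 MT2A, MT1G and MT1X were higher with R1881. In siSCR cells MT2A went from 41.6, 52.5 and 55.6 to 74.7, 80.7 and 97.9 CPM (log2 fold change 0.76, standard error 0.11, edgeR adjusted p = 1.62e-05). MT1G went from 12.01, 12.5 and 13.4 to 17.1, 22.2 and 22.1 CPM (log2 fold change 0.69, standard error 0.14, edgeR adjusted p = 6.29e-04). MT1X went from 1.92, 3.00 and 2.18 to 3.61, 3.62 and 5.00 CPM (log2 fold change 0.78, standard error 0.27, edgeR adjusted p = 0.029). No R1881 library of these genes fell within the range of the vehicle libraries. The MT1X call was lost without vehicle replicate 1 (0.65, adjusted p = 0.117), without vehicle replicate 3 (0.72, adjusted p = 0.0516) and without R1881 replicate 3 (0.60, adjusted p = 0.156). The 3 genes were the members called of 9 tested, where 13.8% of all genes were called and 4.19% were called higher. At the adjusted p alone, with no fold threshold, 8 of the 9 members passed, against 33% of all genes: MT1E (log2 fold change 0.48, adjusted p = 0.0447) was added to them, as were MTF1, SLC39A1 and SLC39A6 on the higher side and SLC30A1 on the lower side. MT1F did not pass, and its ranges of 8.62 to 9.43 CPM in vehicle and 8.24 to 10.96 CPM with R1881 overlapped.

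In 22Rv1 cells with siMETTL3 the called members were again MT2A, from 41.2, 33.9 and 35.7 to 58.7, 69.3 and 67.5 CPM (log2 fold change 0.80, standard error 0.11, edgeR adjusted p = 9.93e-06), MT1G, from 7.11, 5.37 and 8.52 to 14.6, 12.5 and 16.3 CPM (1.03, standard error 0.15, adjusted p = 1.56e-05) and MT1X, from 1.60, 1.97 and 3.18 to 2.86, 5.54 and 5.32 CPM (1.00, standard error 0.26, adjusted p = 0.00542). The MT1X libraries overlapped between the treatments, and those of MT2A and MT1G did not. Of all genes 13.5% were called and 4.18% called higher, and 33.1% passed the adjusted p alone, as did 7 of the 9 members. The summed level of the 6 metallothionein genes was 78.9 ± 8.95 CPM in siSCR vehicle and 126 ± 16.3 CPM in siSCR R1881 cells, and 55.9 ± 5.68 and 96.8 ± 7.56 CPM in siMETTL3 cells. Mitochondrial genes took 6.12% to 6.89% of the counts in the siSCR vehicle libraries of 22Rv1 and 4.96% to 5.28% in the siSCR R1881 libraries, and 5.04% to 7.45% and 3.93% to 4.24% with siMETTL3. The 6 fibroblast markers summed to 26.6 to 32.9 CPM in siSCR vehicle and 17.7 to 18.4 CPM in siSCR R1881 libraries, and to 31.8 to 32.2 and 16.6 to 18.1 CPM with siMETTL3. Of these markers COL1A1 (-0.73 and -0.91 on the log2 scale) and LUM (-0.86 and -0.82) were called lower with R1881 in siSCR and siMETTL3 cells. The part of these shifts in the result was not tested. In LNCaP:C4-2 siSCR cells the corresponding ranges overlapped (8.02% to 8.48% and 7.08% to 9.73%).

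The opposite responses of the lines were tested as differences of log2 fold changes in a fit of all 24 libraries. For MT2A the R1881 effect in 22Rv1 exceeded that in LNCaP:C4-2 by 2.00 in siSCR cells (standard error 0.15, edgeR adjusted p = 2.99e-10) and by 2.49 in siMETTL3 cells (standard error 0.15, adjusted p = 5.32e-12). For MT1X the differences were 2.14 (standard error 0.33, adjusted p = 3.65e-05) and 1.74 (standard error 0.32, adjusted p = 3.56e-04), and for MT1F 1.00 (standard error 0.24, adjusted p = 0.00422) and 1.53 (standard error 0.24, adjusted p = 4.96e-05). These 3 were called of the 7 members read in both lines, at a background of 16.8% of all genes in siSCR and 15.3% in siMETTL3 cells. Of the 12594 genes with at least 10 counts in every library, 2894 were called in siSCR and 2644 in siMETTL3 cells. MTF1, SLC30A1, SLC39A1 and SLC39A6 did not pass, with differences between -0.09 and 0.16 in siSCR cells. Each of the 3 calls was kept without each library in turn. For MT1F the difference came with a log2 fold change of 0.11 for R1881 in 22Rv1 siSCR cells that did not pass the test (adjusted p = 0.602). In 22Rv1 siMETTL3 cells its log2 fold change was 0.40, which passed the adjusted p alone (edgeR adjusted p = 0.0413).

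**Figure D3:**
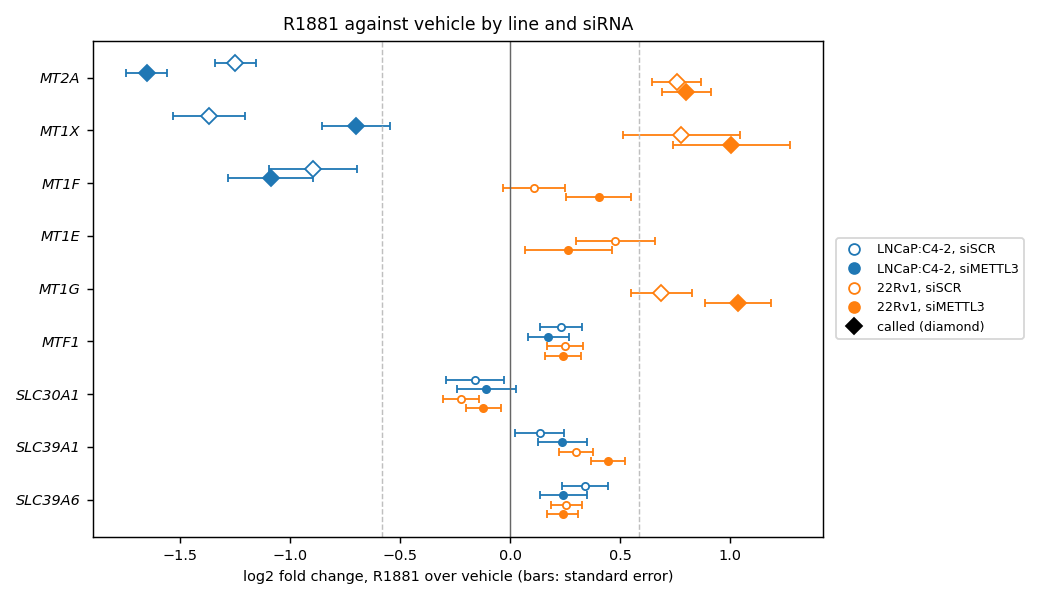
Log2 fold change of R1881 over vehicle (horizontal axis, bars one standard error) for 9 genes in each line and siRNA, with diamonds for calls at an adjusted p under 0.05 and at least 1.5-fold and dashed lines at 1.5-fold. MT2A and MT1X lie left of 0 in LNCaP:C4-2 and right of 0 in 22Rv1, while MTF1, SLC30A1, SLC39A1 and SLC39A6 stay inside the dashed lines in both.

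The zinc sensor MTF1 and the transporters among the members (SLC30A1, SLC39A1 and SLC39A6) responded to R1881 by less than 1.5-fold in every comparison. MTF1, the factor that reads free zinc, was 35.2, 35.5 and 38.2 CPM in LNCaP:C4-2 siSCR vehicle and 42.4, 41.9 and 44.4 CPM with R1881, ranges that did not overlap, and its log2 fold change of 0.23 missed the threshold (standard error 0.10, edgeR adjusted p = 0.0904). In 22Rv1 it was 31.8, 29.9 and 31.7 CPM against 35.3, 37.9 and 38.3 CPM (log2 fold change 0.25, standard error 0.08, edgeR adjusted p = 0.0216).

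SLC30A1, the plasma membrane exporter, had log2 fold changes with R1881 of -0.16 (adjusted p = 0.412) and -0.11 (adjusted p = 0.638) in LNCaP:C4-2 siSCR and siMETTL3 cells, and of -0.22 (adjusted p = 0.0389) and -0.12 (adjusted p = 0.269) in 22Rv1. SLC39A1, a zinc importer of the plasma membrane, passed the adjusted p alone in 22Rv1, going from 159, 159 and 138 to 184, 187 and 194 CPM in siSCR cells (log2 fold change 0.30, standard error 0.08, edgeR adjusted p = 0.00524) and up by 0.44 on the log2 scale in siMETTL3 cells (adjusted p = 1.32e-04). In LNCaP:C4-2 its values of 0.13 and 0.24 did not pass. SLC39A6, an importer described as an estrogen-regulated gene in breast cancer, passed the adjusted p alone in LNCaP:C4-2 siSCR cells, going from 122, 123 and 144 to 155, 169 and 172 CPM (log2 fold change 0.34, standard error 0.10, edgeR adjusted p = 0.0267). In 22Rv1 it did so at 0.25 in siSCR (adjusted p = 0.00811) and 0.24 in siMETTL3 cells (adjusted p = 0.0125). The SLC39A1 exons share 280 of 3388 bases with CREB3L4 on the other strand, and the counting did not use strand.

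**Figure D4:**
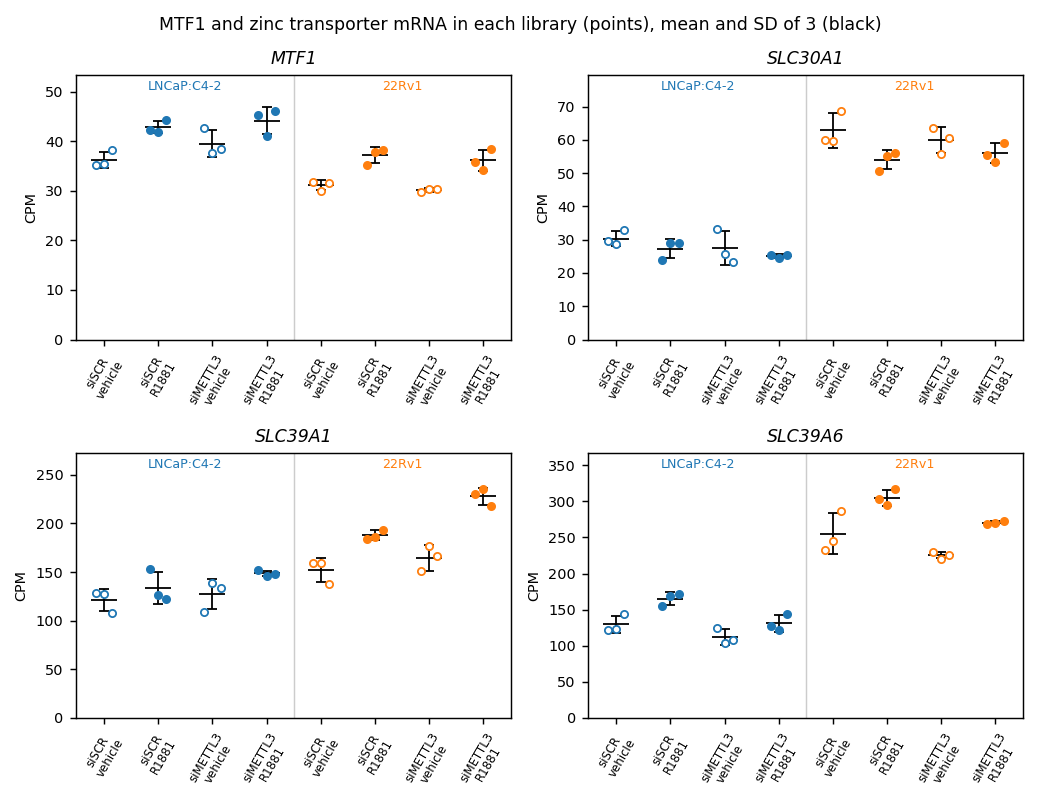
MTF1, SLC30A1, SLC39A1 and SLC39A6 mRNA in CPM (vertical axes, linear) in each of the 24 libraries, by line, siRNA and treatment (open points vehicle, filled points R1881), with the mean and SD of 3 libraries in black. SLC30A1 and SLC39A6 are higher in every 22Rv1 library than in any LNCaP:C4-2 library.

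With METTL3 knockdown 1 member was called in each of the 4 comparisons, and a different one each time. In LNCaP:C4-2 in vehicle MT2A was 81.0, 81.0 and 80.1 CPM with siSCR and 125, 118 and 125 CPM with siMETTL3. The libraries did not overlap, and the log2 fold change was 0.59 (standard error 0.09, edgeR adjusted p = 0.00977). It was the member called of 7 tested, against 1.2% of all genes. The value sits on the fold threshold: it was 0.57 without siMETTL3 replicate 1 (adjusted p = 0.00934), 0.57 without siMETTL3 replicate 3 (adjusted p = 0.0142), 0.61 without siMETTL3 replicate 2 (adjusted p = 0.0523), 0.59 without siSCR replicate 1 (adjusted p = 0.0634) and 0.59 without siSCR replicate 3 (adjusted p = 0.0671), none of which met both thresholds. With R1881 the MT2A change was 0.18 (adjusted p = 0.204). The leukocyte marker PTPRC was called lower with siMETTL3 in vehicle, from at most 28 to at most 5 counts in a library. The 9 luminal markers summed to 2651 to 2747 CPM with siSCR and 2783 to 3090 CPM with siMETTL3 in vehicle. The part of these shifts was not tested.

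In LNCaP:C4-2 with R1881 MT1X was 2.67, 3.23 and 3.38 CPM with siSCR and 6.41, 5.39 and 4.90 CPM with siMETTL3, again without overlap (log2 fold change 0.85, standard error 0.17, edgeR adjusted p = 0.033). It was the member called of 7, against 0.7% of all genes. The call was lost without siMETTL3 replicate 1 (0.73, adjusted p = 0.186), siMETTL3 replicate 2 (0.86, adjusted p = 0.114), siSCR replicate 2 (0.88, adjusted p = 0.162) or siSCR replicate 3 (0.91, adjusted p = 0.108). Mitochondrial genes took 6.46% to 7.05% of the counts in the siMETTL3 R1881 libraries and 7.08% to 9.73% in the siSCR R1881 libraries, the fibroblast markers summed to 67.9 to 68.1 and 41.3 to 50.8 CPM in them, and the part of these shifts was not tested. In vehicle the MT1X change was 0.18 (adjusted p = 0.591). Of the exons of MT1X, 321 of 1773 bases are shared with an unnamed gene on the same strand (ENSG00000259827), and fragments on both genes were not counted.

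In 22Rv1 the called metallothioneins were lower with siMETTL3. In vehicle MT1G went from 12.01, 12.5 and 13.4 CPM with siSCR to 7.11, 5.37 and 8.52 CPM with siMETTL3 (log2 fold change -0.86, standard error 0.15, edgeR adjusted p = 0.00703). It was the member called of 9 tested, against 0.202% of all genes, and its call was lost without siMETTL3 replicate 2 (-0.70, adjusted p = 0.0742). MT2A was 41.6, 52.5 and 55.6 against 41.2, 33.9 and 35.7 CPM, where every siMETTL3 library lay below every siSCR library and the log2 fold change of -0.43 missed the threshold (standard error 0.11, adjusted p = 0.0868). It passed the adjusted p in some of the other settings (lowest 0.00205), always under 1.5-fold. At an adjusted p under 0.05 alone DESeq2 had 2 members and edgeR 1. An edgeR unadjusted p under 0.05 was found for 5 of the 9 members, all lower (MT1E -0.55, MT1F -0.51, MT1G, MT2A and SLC39A6). Such a p was found for 2604 of all 17865 genes.

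With R1881 MT1E went from 6.30, 7.07 and 7.61 CPM with siSCR to 3.41, 4.50 and 4.55 CPM with siMETTL3 in 22Rv1 (log2 fold change -0.76, standard error 0.18, edgeR adjusted p = 0.00996). It was the member called of 9, against 3.29% of all genes. The call was lost without siSCR replicate 3 (-0.69, adjusted p = 0.0511) or siMETTL3 replicate 1 (-0.64, adjusted p = 0.069). At the adjusted p alone 4 of the 9 passed, against 16.2% of all genes: MT1E, MT1G (-0.51, adjusted p = 0.0169), MT2A (-0.39, adjusted p = 0.0205) and, in the other direction, SLC39A1 (0.26, adjusted p = 0.0257). MT1G met both thresholds without siSCR replicate 1 (-0.63) or siMETTL3 replicate 3 (-0.61). Mitochondrial genes took 3.93% to 4.24% of the counts in the siMETTL3 R1881 libraries and 4.96% to 5.28% in the siSCR R1881 libraries, and the part of this shift was not tested. MTF1, SLC30A1 and SLC39A6 did not pass in edgeR in any of the 4 knockdown comparisons, with SLC39A6 at log2 fold changes of -0.23, -0.33, -0.17 and -0.19. With R1881 SLC39A6 passed the adjusted p in some of the other settings, DESeq2 among them, always under 1.5-fold (lowest adjusted p 0.0275 in LNCaP:C4-2 and 0.00226 in 22Rv1).

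**Figure D5:**
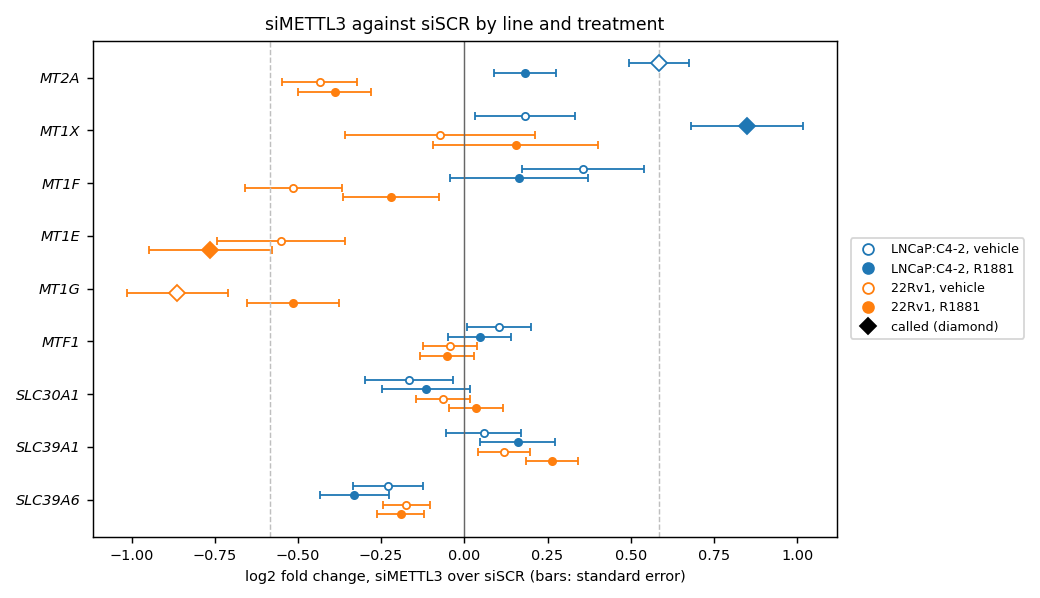
Log2 fold change of siMETTL3 over siSCR (horizontal axis, bars one standard error) for 9 genes in each line and treatment, with diamonds for calls at an adjusted p under 0.05 and at least 1.5-fold and dashed lines at 1.5-fold. The MT2A values are 0.59 and 0.18 in LNCaP:C4-2 and -0.43 and -0.39 in 22Rv1.

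The knockdown effect itself differed between the lines for MT2A in vehicle, by -1.04 on the log2 scale for 22Rv1 less LNCaP:C4-2 (standard error 0.15, edgeR adjusted p = 0.00238). This was the 1 call among the 7 members read in both lines, against 0.458% of all genes. Of the 12594 genes with at least 10 counts in every library, 77 were called in vehicle and 19 with R1881. METTL3 itself changed by -33.8% in LNCaP:C4-2 and by -46.1% in 22Rv1 in vehicle, and the part of this inequality was not tested. MT1F had a difference of -0.89 (standard error 0.23, adjusted p = 0.0797), which passed without LNCaP:C4-2 siMETTL3 vehicle replicate 3 (-0.96, adjusted p = 0.0428). With R1881 edgeR called 0 of the 7, against 0.0926% of all genes, 2 members (MT1X and MT2A) had an unadjusted p under 0.05, and DESeq2 called 0. The MT2A difference there was -0.55 (adjusted p = 0.233).

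Whether METTL3 knockdown altered the response to R1881 was tested as an interaction within each line. In LNCaP:C4-2 edgeR called 0 of the 7 members and 0.0% of all 16435 genes, 2037 genes had an unadjusted p under 0.05, and DESeq2 called 0 members and 56 genes. With no filter on low counts edgeR called 351 of 34664 genes. MT1X had the largest interaction among the members there (0.67, standard error 0.23, adjusted p = 0.33), followed by MT2A (-0.40, standard error 0.13, adjusted p = 0.314), and both had an unadjusted p under 0.05. Their signs were opposite: the fall with R1881 was smaller with siMETTL3 for MT1X and larger for MT2A. In 22Rv1 edgeR called 0 of the 9 members against 0.0168% of all genes, DESeq2 also called 0, and no member had an unadjusted p under 0.05. MT2A there had an interaction of 0.04 (standard error 0.16, adjusted p = 0.975).

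Across all 8 conditions MT2A was highest in LNCaP:C4-2 siMETTL3 vehicle cells (118 to 125 CPM) and lowest in LNCaP:C4-2 siSCR R1881 cells (32.3 to 36.2 CPM). The highest condition stood clear of the next, 22Rv1 siSCR R1881, whose range (74.7 to 97.9 CPM) took in LNCaP:C4-2 siSCR vehicle. The 4 lowest conditions formed a chain in which each range overlapped its neighbour. SLC39A1 was highest in 22Rv1 siMETTL3 R1881 cells (218 to 235 CPM), clear of 22Rv1 siSCR R1881 cells (184 to 194 CPM), and its 4 LNCaP:C4-2 conditions overlapped from neighbour to neighbour (108 to 153 CPM).

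The other genes of zinc and metal handling were counted from fixed lists. Of 9 other SLC30 exporter genes, 7 were tested in LNCaP:C4-2. With R1881 SLC30A7, a transporter of the secretory pathway, rose in siSCR (log2 fold change 0.91, edgeR adjusted p = 1.59e-04) and siMETTL3 cells (0.76, adjusted p = 0.00104), while SLC30A3 fell (-1.16, adjusted p = 0.0164, and -0.95, adjusted p = 0.0443). SLC30A10, known as a manganese exporter, was also called lower and had at most 18 counts in a siSCR vehicle library and 1 in an R1881 library. In 22Rv1 edgeR called 0 of the 5 tested with R1881, and 3 in siSCR and 2 in siMETTL3 cells had an unadjusted p under 0.05. The shares of all genes called there were 13.8% in siSCR and 13.5% in siMETTL3 cells. SLC30A4, which carries zinc into vesicles, stood at 357 ± 25.3 CPM in LNCaP:C4-2 siSCR vehicle and 4.14 ± 0.986 CPM in 22Rv1 (SD, n = 3), and it was called lower in 22Rv1, opposite to SLC30A1. Of the 10 other SLC39 importer genes tested between the lines in vehicle, SLC39A4 (-0.83), SLC39A7 (-1.15), SLC39A8 (-2.03) and SLC39A13 (-1.13) were called lower in 22Rv1, opposite to SLC39A6, and SLC39A10 (0.60) was called higher, where 59.2% of all genes were called. Over all the fixed lists together, 22 of the 37 genes tested between the lines in vehicle were called. With R1881 it was 17 of 37, against 60.1% of all genes, and only some of these genes are named here.

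Of 12 other SLC39 importer genes, edgeR called 0 of the 9 tested in LNCaP:C4-2 with R1881, and 5 in siSCR and 2 in siMETTL3 cells had an unadjusted p under 0.05. The shares of all genes called there were 15.1% in siSCR and 10.6% in siMETTL3 cells. In 22Rv1 SLC39A8, an importer of zinc and manganese, rose in siSCR cells (0.71, edgeR adjusted p = 7.53e-06) and SLC39A5, at no more than 31 counts in a library, fell in siSCR (-1.11, adjusted p = 0.0405) and siMETTL3 cells (-1.05, adjusted p = 0.0228). Of 11 other metallothionein genes and pseudogenes 2 passed the filter in LNCaP:C4-2, and MT3 was called lower with R1881 in both siRNAs at no more than 17 counts in a library. No other metallothionein passed it in 22Rv1.

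Genes of the metal and oxidative stress list were called mainly in 22Rv1. There 5 of its 11 genes were called with R1881 in siSCR cells, all higher: GCLC (0.96, edgeR adjusted p = 1.76e-10) and GCLM (0.67, adjusted p = 5.41e-07), the subunits of the enzyme that starts glutathione synthesis, TXNRD1 (0.79, adjusted p = 2.98e-09), NQO1 (0.81, adjusted p = 2.32e-06) and HMOX1, heme oxygenase 1 (0.91, adjusted p = 1.39e-04). Of all genes 13.8% were called in that comparison and 4.19% called higher. The median of the 11 was 0.58, against 0.00 for all genes. With siMETTL3 7 of 11 were called, SRXN1 and OSGIN1 in addition, against 13.5% of all genes and 4.18% called higher, and the median was 0.71. In LNCaP:C4-2, at backgrounds of 15.1% and 10.6%, the list had 1 call with R1881, GCLC, which fell by 0.73 in siSCR (adjusted p = 5.71e-05) and by 0.92 in siMETTL3 cells (adjusted p = 6.17e-06), and its medians were 0.10 and 0.21. Tested as differences between the lines in the R1881 effect, 4 of the 11 were called in siSCR cells, GCLC (1.68, standard error 0.11, adjusted p = 9.97e-12), NQO1, TXNRD1 and the chaperone gene DNAJB1, and 4 in siMETTL3 cells, GCLC (1.89, standard error 0.11, adjusted p = 1.32e-12), HMOX1, GCLM and TXNRD1, each higher in 22Rv1, against 16.8% and 15.3% of all genes. GCLC was thus lower with R1881 in LNCaP:C4-2 and higher in 22Rv1, as were MT2A and MT1X. Over all the fixed lists together, 9 of the 37 genes tested were called for this difference in siSCR cells and 6 in siMETTL3 cells. Genes outside the stress list were therefore called too and are not all named here. With METTL3 knockdown edgeR called 0 of the 36 genes of these lists tested in LNCaP:C4-2, of which 9 in vehicle and 16 with R1881 had an unadjusted p under 0.05, and 0 of 33 in 22Rv1 in vehicle (8 at an unadjusted p under 0.05). The shares of all genes called were 1.2% and 0.7% in LNCaP:C4-2 in vehicle and with R1881, and 0.202% in 22Rv1 in vehicle. The other tool was not used for these lists. The edgeR fit called 3 in 22Rv1 with R1881, HMOX1 (0.97, adjusted p = 4.21e-04), SRXN1 (1.21, adjusted p = 0.00327) and OSGIN1 (0.65, adjusted p = 0.0192), all higher while MT1E was lower, against 3.29% of all genes called. Of 7 copper handling genes 1 was called in any of these 8 comparisons, ATP7B, higher with R1881 in 22Rv1 siSCR cells (0.73, adjusted p = 3.42e-05).

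The genes whose log2 CPM followed MT2A most closely over the 12 libraries of LNCaP:C4-2 were RASSF5 (Pearson's r = 0.985), MYLK (0.982) and EVC (0.981), and over those of 22Rv1 RAB5A (0.986), ALMS1-IT1 (0.986) and PUM3 (0.985). For SLC39A6 they were EIF3J (0.976) and ARID5B (0.969) in LNCaP:C4-2 and DNAJC19 (0.990) and KLHL9 (0.989) in 22Rv1. These values describe likeness over libraries that share 4 conditions, and the nearest genes were not the same in the lines.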

How the data were processed

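RNA-seq counts of 24 libraries were used. Trim Galore, STAR (GRCh38) and featureCounts 1.5.0 with the Ensembl release 83 annotation were used by the authors for trimming, alignment and counting. The values are raw counts per gene, as deposited by the authors, without normalization. Strand was not used in counting, and the defaults drop multi-mapping fragments and those shared by overlapping genes. Depth is given per library as the total count. 3 counts, the smallest readable signal, equal 0.141 to 0.191 CPM at the unscaled totals. Floors cover counting error only.

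Groups were taken from the sample labels. One edgeR 4.0.16 model (R 4.3.3) was fitted per line, over its 12 libraries and with 4 condition means: filterByExpr (at least 10 counts, total at least 15), TMM scaling, glmQLFit and glmQLFTest, 8 residual degrees of freedom, and Benjamini-Hochberg adjustment over all genes tested (16435 in LNCaP:C4-2, 17865 in 22Rv1). Comparisons between lines used all 24 libraries (19437 genes, 16 degrees of freedom). Genes were called at an adjusted p under 0.05 and at least 1.5-fold, the interactions and the differences between lines at an adjusted p under 0.05 alone. Every adjusted p in the text is from these edgeR fits unless DESeq2 is named. Standard errors were derived from the F statistic (log2 fold change over its root). CPM values in the text were scaled over all 24 libraries. Levels between genes were compared per kilobase of the GENCODE v44 canonical transcript. Promoters and symbols came from RefSeq and GENCODE tables.

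The genes named are the 10 members, METTL3, cell type markers, members of the lists, and the genes most like MT2A and SLC39A6 in Pearson's r of log2 CPM. One marker gene is not reported here by name. Members and lists were chosen with earlier results of these data known. In simulated counts, where 1 log2 unit was added to or taken from 200 genes, edgeR found on average over 5 draws 71.5% (knockdown, LNCaP:C4-2 vehicle), 78.2% (knockdown, 22Rv1 vehicle), 52.7% and 66.3% (interactions in LNCaP:C4-2 and 22Rv1) and 56.7% (difference between lines in the R1881 effect, siSCR), with 2.86% to 7.98% of calls false. The alternatives were DESeq2 1.42.0, RLE size factors, library size alone, no filter, at least 10 counts in every library, a replicate block, only the conditions compared, no fold-change threshold, a stricter adjusted p (0.01), and each library left out. Tables were made in Python 3.11.15 with pandas 2.3.3 and scipy 1.17.1, figures with matplotlib 3.10.9.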

Additional observations from a re-analysis of the deposited data

Results flagged for a closer look

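A total of 7 results were picked out because the effect of a treatment or siRNA differed between the cell lines by the test of the difference itself (edgeR's quasi-likelihood test, all 24 libraries, 22Rv1 less LNCaP:C4-2 on the log2 scale). For the R1881 effect in siSCR cells they are MT2A (2.00), MT1X (2.14) and MT1F (1.00), and in siMETTL3 cells MT2A (2.49), MT1X (1.74) and MT1F (1.53). For the siMETTL3 effect in vehicle it is MT2A (-1.04). The differences in siSCR and siMETTL3 cells rest on different libraries, while the knockdown difference shares its vehicle libraries with both. Groups of 3 libraries were not tested for outlying values.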

How the results depend on the processing

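Most results kept their direction and their side of the thresholds. The calls in LNCaP:C4-2 with R1881 against vehicle, with siSCR and with siMETTL3, and the differences between lines in the R1881 effect stayed at 3 members without each library in turn. The number of members called for siMETTL3 against siSCR in LNCaP:C4-2 vehicle (1) was 0 with RLE size factors, library size alone and DESeq2, where MT2A was 0.58, 0.55 and 0.58 at adjusted p of 0.00956, 0.0102 and 6.29e-08, just under the fold threshold. In LNCaP:C4-2 R1881 it was 0 at an adjusted p under 0.01, and in 22Rv1 vehicle 0 with only the conditions compared (MT1G -0.86, adjusted p = 0.0652). Without a fold threshold the members called were 4 for siMETTL3 in 22Rv1 R1881 and 8 and 7 for R1881 in 22Rv1 with siSCR and siMETTL3. Between lines in siSCR vehicle the count was 4 with at least 10 counts in every library, where MT2A went to -0.57, just under the fold threshold. That filter also leaves out MT1E and MT1G, which the counts between lines given above do not include. The count was 2 with DESeq2 for the line difference in the siMETTL3 effect in vehicle, where MT1F passed (-0.88, adjusted p = 0.0279). Without each library in turn the counts ran from 0 to 1 for siMETTL3 in LNCaP:C4-2 vehicle, in LNCaP:C4-2 R1881 and in 22Rv1 vehicle, from 0 to 2 in 22Rv1 R1881 and from 1 to 2 for the line difference in the siMETTL3 effect in vehicle.

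METTL3 in LNCaP:C4-2 was -0.61 in vehicle and -0.57 with R1881 also under the threshold of 0.01, which neither passed, and -0.61 in vehicle with only the conditions compared (adjusted p = 0.054). Without each library in turn it was -0.66 to -0.55 in vehicle and -0.65 to -0.52 with R1881, with adjusted p up to 0.0982 and 0.162. Values near 0 that did not pass changed sign without a library: SLC39A1 with siMETTL3 in LNCaP:C4-2 vehicle (-0.014 to 0.16), SLC30A1 with R1881 in LNCaP:C4-2 siMETTL3 (-0.21 to 0.041), MT1X with siMETTL3 in 22Rv1 vehicle (-0.39 to 0.14), SLC30A1 with siMETTL3 in 22Rv1 R1881 (-0.0096 to 0.074) and the MT2A interaction in 22Rv1 (-0.039 to 0.17). Library size alone moved the median of all genes by 0.15 and 0.21 between lines in vehicle and R1881 and by -0.12 for R1881 in LNCaP:C4-2 siSCR. Between lines with R1881 it took MTF1 from -0.21 to 0.00090, MT1X from 0.40 to 0.60 (adjusted p = 0.0249) and SLC39A1 to 0.70. With no library left out, the settings tried put the count over all genes between 40 and 464 for siMETTL3 in LNCaP:C4-2 vehicle (197 in the text), between 6 and 776 with R1881 (115), between 14 and 100 in 22Rv1 vehicle (36) and between 304 and 2897 with R1881 (587). For the interactions it was between 0 and 351 in LNCaP:C4-2 (0 in the text) and between 2 and 79 in 22Rv1 (3). The highest counts for the interactions came with no filter on low counts. Other than by construction, the cause of these changes was not tested.

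Libraries with the same replicate number did not deviate together on average (18 pairs a line, with a mean correlation of -0.0173 for LNCaP:C4-2 and -0.010 for 22Rv1). Single pairs ran from -0.337 to 0.195 in LNCaP:C4-2, with 6 over 0.1, and from -0.228 to 0.152 in 22Rv1, with 1 over 0.1. The labels do not say whether the numbers pair the conditions, and these correlations cannot settle it. With the number as a block the count for siMETTL3 in LNCaP:C4-2 R1881 was 0, where MT1X was 0.85 (adjusted p = 0.0709) and METTL3 -0.57 (adjusted p = 0.0706), and the block changed no other call of a member. Depth limits the low members, such as MT1X at 1.60 to 9.46 CPM and MT1E at 2.35 to 7.61 CPM where they were read, and MT1M could not be compared.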
